A study of Mus musculus with 63 samples.

Results

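Endothelial cells (ECs) sorted from mouse kidneys after reversal of a ureteric obstruction (R-UUO) were compared with ECs from sham-operated kidneys by small RNA-sequencing (sRNA-Seq), to see which microRNA (miRNA) changes remained after reversal. The comparison held 8 of the 63 libraries of the series, 4 from sham mice and 4 from R-UUO mice, and all 2110 loci of mature miRNAs in the table entered it. All mice were male C57BL/6 animals of 8 to 12 weeks without a transgene. In R-UUO mice, 1 ureter was ligated for 7 days and then reimplanted into the bladder, and the kidney was taken 14 days later. The EC libraries of mice after 2 days (UUO-2) and 7 days (UUO-7) of obstruction, 4 of each, served for reference, so that 16 EC libraries were fitted together. ECs were the CD45- CD31+ cells of digested cortex, a gate that takes the cells of all cortical vessels together. The 4 mice sequenced in each group were those of a larger group whose tubular injury marker KIM-1 lay closest to the mean. No library came from a kidney left obstructed to the time of the R-UUO kidneys, so reversal and the time since ligation cannot be told apart.

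ECs line the peritubular capillaries, glomerular tufts and larger vessels of the kidney. Obstruction is known to activate them and to thin out the capillary bed around injured tubules. A miRNA is a short RNA that, held in an Argonaute protein, pairs with messenger RNAs mainly through its seed, the bases 2 to 8 from its 5′ end, and lowers their stability and translation. Related miRNAs that share a seed can therefore act on overlapping targets. miR-126, carried in the Egfl7 gene, is the best known endothelial miRNA.

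The mature sequences of the miRNAs on which the results turned are given first, from RefSeq (GRCm38.p6, the build of the deposited loci), 5′ to 3′, with the seed in capitals. The miRNAs of the inflammatory response that stayed higher after reversal have unlike seeds. miR-21a-5p lies at chr11:86584120-86584141 (minus strand, an exon of Vmp1), miR-155-5p at chr16:84714143-84714165 (plus strand, an exon of Mir155hg), miR-146b-5p at chr19:46342790-46342811 (plus strand, an intron of Mfsd13a) and miR-31-5p at chr4:88910614-88910635 (minus strand).
miR-21a-5p: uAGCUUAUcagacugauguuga
miR-155-5p: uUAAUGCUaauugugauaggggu
miR-146b-5p: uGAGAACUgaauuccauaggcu
miR-31-5p: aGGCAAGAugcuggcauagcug

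The miRNAs of the miR-183, miR-96 and miR-182 cluster, all on the minus strand of chr6:30165962-30169732, are shown because all the tested members rose together. The seeds of miR-182-5p and miR-96-5p share their first letters.
miR-183-5p: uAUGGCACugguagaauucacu
miR-96-5p: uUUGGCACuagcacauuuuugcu
miR-182-5p: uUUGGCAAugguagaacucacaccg

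The next set is shown because its higher members fall into families with a common seed. miR-99a-5p (chr16:77598940-77598961, plus strand, an intron of Mir99ahg) and miR-100-5p (chr9:41531437-41531458, plus strand) differ by U16A, with miR-99a-5p named first and positions counted from the 5′ end. miR-125b-5p, which is encoded at chr9:41581940-41581961 and at chr16:77646279-77646300, has the seed of miR-351-5p (chrX:53053315-53053338, minus strand). miR-10a-5p (chr11:96317186-96317208, plus strand) and miR-10b-5p (chr2:74726074-74726096, plus strand, an intron of Hoxd3 and Hoxd4) differ by U12A. miR-19a-3p and miR-19b-3p differ by U11C.
miR-99a-5p: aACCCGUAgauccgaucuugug
miR-100-5p: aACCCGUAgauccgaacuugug
miR-125b-5p: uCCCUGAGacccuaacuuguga
miR-351-5p: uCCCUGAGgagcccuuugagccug
miR-10a-5p: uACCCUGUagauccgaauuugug
miR-10b-5p: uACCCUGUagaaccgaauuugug
miR-19a-3p: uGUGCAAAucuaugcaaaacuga
miR-19b-3p: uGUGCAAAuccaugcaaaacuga

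The remaining sequences belong to single miRNAs described in full below. Higher in R-UUO were miR-148a-3p (chr6:51269829-51269850, minus strand, no host gene on that strand), miR-322-5p (chrX:53054306-53054327, minus strand) and miR-142a-5p (chr11:87756867-87756887, plus strand, an intron of Mir142hg). Lower in R-UUO were miR-204-5p (chr19:22750610-22750631, plus strand, an intron of Trpm3), miR-574-3p (chr5:64970364-64970385, plus strand, an intron of Fam114a1), miR-1941-5p (chr15:101369364-101369387, plus strand) and miR-192-5p (chr19:6264857-6264877, plus strand). miR-126a-3p (chr2:26591402-26591423, plus strand, Egfl7) is the endothelial marker.
miR-148a-3p: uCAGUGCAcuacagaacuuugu
miR-322-5p: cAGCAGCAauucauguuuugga
miR-142a-5p: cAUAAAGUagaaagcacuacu
miR-204-5p: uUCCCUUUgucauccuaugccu
miR-574-3p: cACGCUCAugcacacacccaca
miR-1941-5p: aGGGAGAUgcugguacagaggcuu
miR-192-5p: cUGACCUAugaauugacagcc
miR-126a-3p: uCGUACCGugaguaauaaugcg

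Sham EC libraries held 7395011 to 10819385 miRNA counts. R-UUO replicates 1, 2 and 5 held 9506106 to 10319896 counts, but R-UUO replicate 4 held 3934970. Levels are given as CPM, the miRNA counts relative to the library total, scaled by the trimmed mean of M values (TMM), and a count of 3 stood for 0.272 to 0.355 CPM in sham and 0.285 to 1.13 CPM in R-UUO libraries. R-UUO replicate 4 stood apart from the other R-UUO libraries. Its 10 most counted loci took 82.2% of its counts, against 72.1% to 75.9% in the other 7 libraries of the comparison, and its TMM factor was 0.674. It was above the other 3 R-UUO libraries at 35 of the 79 loci that passed the test below, and under them at 19. Where the call of a miRNA described below turned on this library, that is said beside it. The libraries carried the mark of their sort, since miR-126a-5p stood at 74261, 82169, 83186 and 73017 CPM in sham replicates 1 to 4 and at 100140, 83702, 48145 and 71968 CPM in R-UUO replicates 1, 2, 4 and 5.

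Of the 2110 loci, 469 had enough counts to be tested. In ECs, 79 of these differed between R-UUO and sham at a false discovery rate (FDR) under 0.05 with a fold change above 1.5, which is 16.8% of the loci tested (edgeR quasi-likelihood test, Benjamini-Hochberg adjustment over all 469). Of these DEmiRNAs, 55 were higher after reversal (11.7%) and 24 were lower (5.12%). The higher loci carried 51 mature names, and their log2 fold changes ran from 0.59 to 4.64 with a median of 1.14. The lower loci fell by 0.60 to 3.40 on the log2 scale, with a median of 1.24. At an unadjusted p under 0.05, 160 loci differed. Across all loci tested, the R-UUO and sham libraries did not overlap at 123 (26.2%). Among the DEmiRNAs, they did not overlap at 44 of the 55 higher and at all 24 lower loci. Replicates were different mice. Most miRNAs named here follow a fixed rule of size and level, and the others, listed with the processing steps, were chosen after their values were seen.

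**Figure D1:**
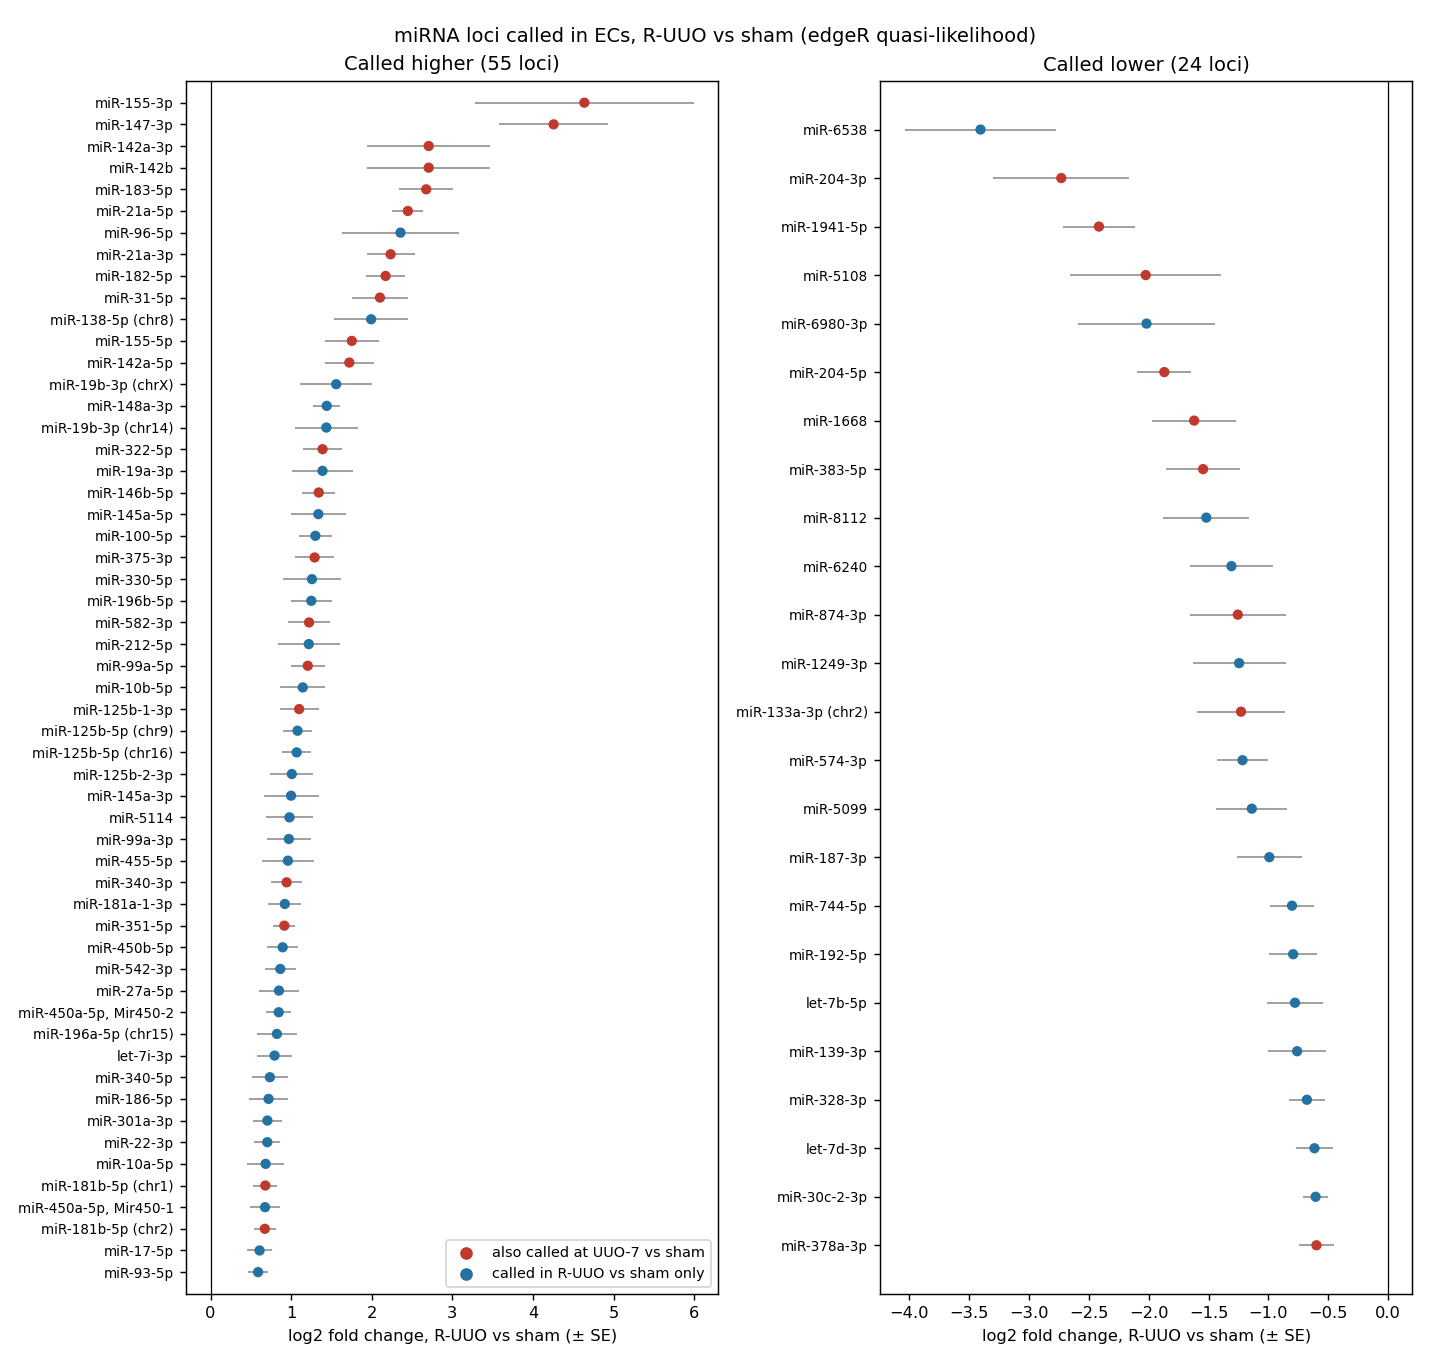
The log2 fold change (R-UUO against sham, horizontal axis) of each of the 79 loci that passed the test in ECs, with bars of ± 1 SE and colours for loci that also passed at UUO-7 against sham. Values run from -3.40 at miR-6538 to 4.64 at miR-155-3p.

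The balance of higher and lower loci depended on the scaling. With TMM, 69.6% of the DEmiRNAs were higher and the median log2 fold change of all loci tested was 0.04. With library size alone, 31 loci were higher and 70 lower, so that 30.7% were higher, and the median was -0.27. No DEmiRNA changed sign between these scalings. Under library size alone, 31 of the 55 higher and all 24 lower loci still passed. Without R-UUO replicate 4, 57 loci were higher and 26 lower, and 69 of the 79 still passed. The number of lower loci was the less steady: it was 14 without sham replicate 1, 12 without sham replicate 2, 13 without sham replicate 4, 12 without R-UUO replicate 1 and 14 without R-UUO replicate 5.

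Most tested miRNAs of the inflammatory response were above sham after reversal. miR-21a-5p, which is induced by injury in many tissues and is linked to fibrosis, was 5.45-fold higher after reversal. miR-155-5p, made from an NF-κB responsive gene, miR-146b-5p, which dampens Toll-like receptor signalling, miR-147-3p, a product of Toll-like receptor stimulation, and miR-31-5p, which targets adhesion molecules of ECs, were also higher. Of the 12 tested loci of this list, 8 were higher, against 11.7% of all loci tested, and none lower, with a median log2 fold change of 1.55 against 0.04 over all loci tested. At UUO-7, 9 of the 12 were higher than in the same sham libraries, against 29 of all 469 loci, with a median of 1.44 against -0.05 over all loci. With library size alone, 7 of the 8 still passed.

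miR-21a-5p stood at 920, 856, 1065 and 879 CPM in sham replicates 1 to 4 and at 7452, 4039, 4071 and 4718 CPM in R-UUO replicates 1, 2, 4 and 5. Every R-UUO library was above every sham library, and the log2 fold change was 2.45 ± 0.19 (SE), adjusted p = 2.3e-07. Its mean was 4182 CPM at UUO-2, 4929 CPM at UUO-7 and 5070 CPM in R-UUO, so the level after reversal lay beside that at UUO-7, and the difference between these groups did not pass the test (log2 fold change 0.04, adjusted p = 0.91). The other arm of its hairpin, miR-21a-3p, stood at 4.97, 5.72, 5.35 and 6.38 CPM in sham and at 41.2, 25.7, 19.2 and 18.7 CPM in R-UUO (2.23 ± 0.30).

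miR-155-5p stood at 13.7, 9.99, 9.34 and 8.04 CPM in sham and at 43.9, 23.4, 46.0 and 26.1 CPM in R-UUO, with a log2 fold change of 1.75 ± 0.33 (SE) and adjusted p = 0.0013. The groups did not overlap, and R-UUO replicates 1 and 4 lay within the UUO-7 range of 26.3 to 64.0 CPM, with replicates 2 and 5 just below it. The passenger arm miR-155-3p had a single count in the 4 sham libraries and 24 counts in the 4 R-UUO libraries, a ratio of 30.5 after scaling (95% counting interval 4.97 to 1253). R-UUO replicate 4 held 4.53 CPM of it and the other R-UUO libraries 0.329 to 0.475 CPM, and the call was lost without that library (4.64 with it, 3.43 without, adjusted p = 0.055) or without sham replicate 2.

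miR-146b-5p stood at 55.1, 46.1, 57.4 and 50.7 CPM in sham and at 151, 98.5, 150 and 132 CPM in R-UUO (1.34 ± 0.21, adjusted p = 0.00031). The UUO-7 libraries lay between 120 and 156 CPM, which overlaps the R-UUO values, although R-UUO replicate 2 was below all of them. miR-146a-5p has the same seed as miR-146b-5p but did not pass in R-UUO (0.28), and at UUO-7 its log2 fold change was 0.64.

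miR-147-3p was scarce, with 0.518, 0.388, 0.726 and 0 CPM in sham and 20.8, 2.38, 5.66 and 4.27 CPM in R-UUO. The groups did not overlap, but R-UUO replicate 1 held several times as much as the others, and the log2 fold change was 4.25 ± 0.67 (SE), adjusted p = 0.00034. miR-31-5p stood at 3.31, 3.39, 3.72 and 0.709 CPM in sham and at 11.4, 10.9, 10.9 and 15.0 CPM in R-UUO (2.10 ± 0.34). Sham replicate 4 was the low library of its group and R-UUO replicate 5 the high one, and the groups did not overlap. miR-212-5p, of a hairpin induced by CREB, passed at 1.22 ± 0.38 (adjusted p = 0.029), but its call was lost without sham replicate 1, sham replicate 2 or R-UUO replicate 5 and with library size alone.

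**Figure D2:**
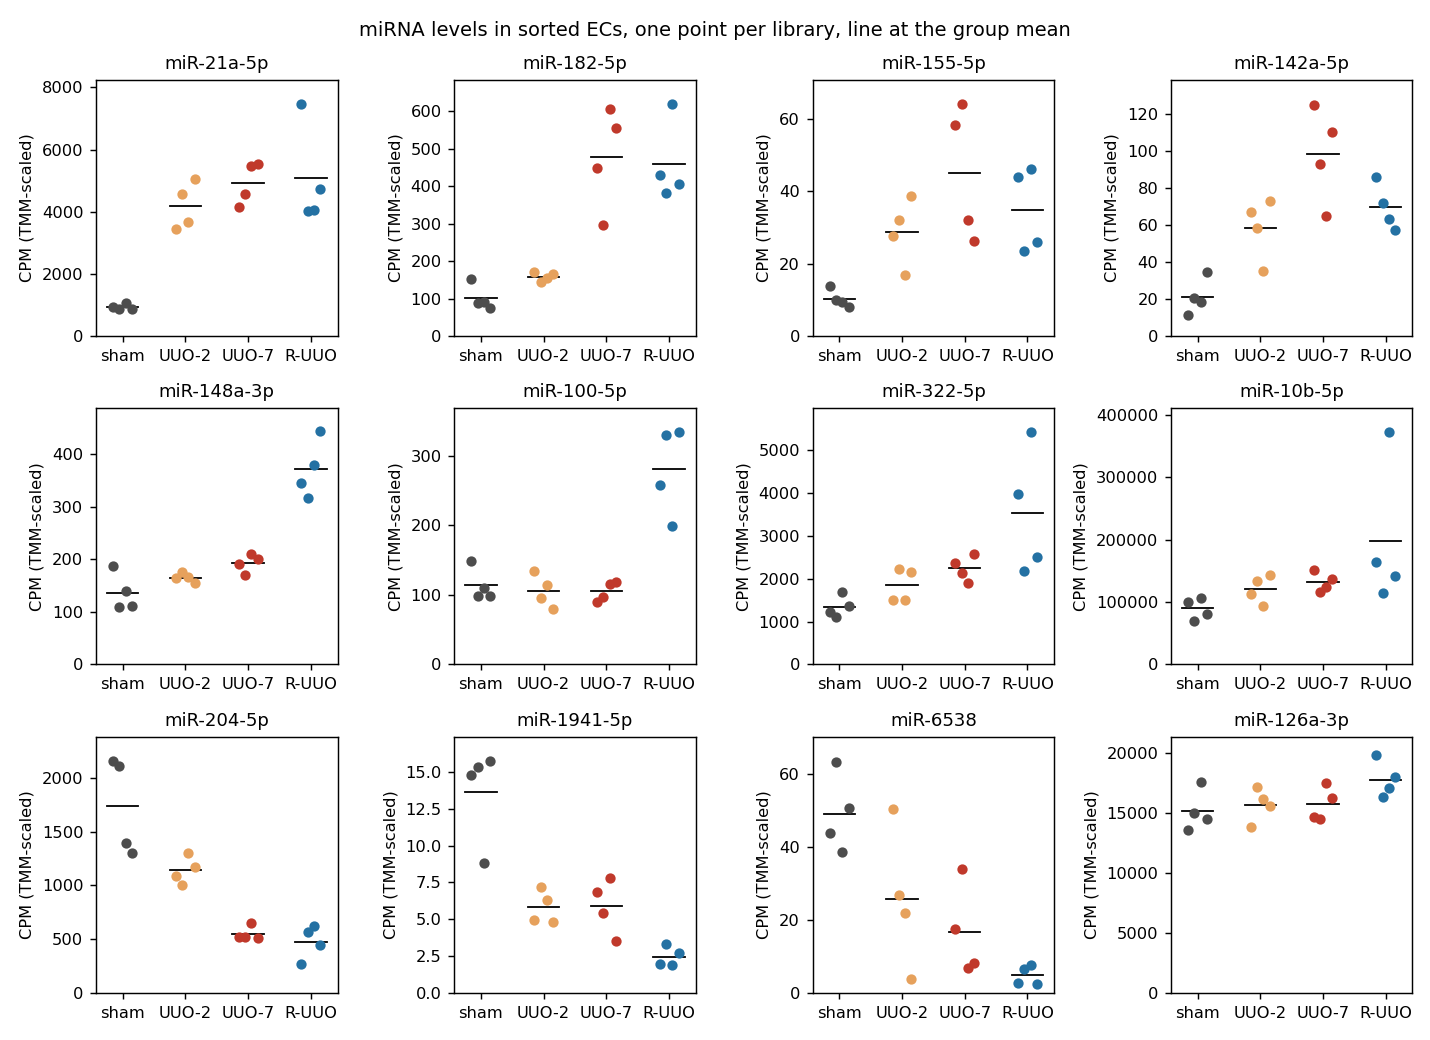
CPM (TMM-scaled, linear axes from 0) of 12 miRNAs in each of the 16 EC libraries by condition, 1 point a library, with a line at the mean. miR-21a-5p sat at 856 to 1065 CPM in sham and at 4039 to 7452 CPM in R-UUO, and miR-204-5p at 1298 to 2156 CPM in sham and 270 to 621 CPM in R-UUO.

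The polycistronic cluster of miR-183, miR-96 and miR-182, best known from sensory epithelia, was higher at all 3 tested loci, against 11.7% of all loci tested. Its median log2 fold change was 2.36. miR-182-5p stood at 153, 88.5, 92.0 and 74.0 CPM in sham and at 430, 381, 618 and 405 CPM in R-UUO, with a log2 fold change of 2.17 ± 0.24 (SE) and adjusted p = 2.0e-05. miR-183-5p stood at 8.08, 3.97, 3.54 and 3.19 CPM in sham and at 27.9, 23.3, 45.7 and 24.7 CPM in R-UUO (2.67 ± 0.34). For both miRNAs the groups did not overlap, with sham replicate 1 the highest sham library and R-UUO replicate 4 the highest R-UUO library. At UUO-7, miR-182-5p had a log2 fold change of 2.23 and miR-183-5p of 2.81, close to the values after reversal. miR-96-5p was near the floor, at 0.621, 1.07, 0.363 and 0 CPM in sham and at 2.05, 1.62, 6.79 and 1.75 CPM in R-UUO, and its call (2.36 ± 0.73, adjusted p = 0.027) was lost without R-UUO replicate 4 (1.84, adjusted p = 0.06), sham replicate 3 or sham replicate 4.

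miR-142a is a miRNA of blood cells, and both of its arms were higher after reversal. miR-142a-5p stood at 11.1, 20.5, 18.5 and 34.4 CPM in sham and at 85.7, 71.7, 63.0 and 57.4 CPM in R-UUO (1.72 ± 0.31, adjusted p = 0.0008). The groups did not overlap. miR-142a-3p was scarce, at 0.104, 0, 0.363 and 0.709 CPM in sham and at 1.42 to 3.40 CPM in R-UUO (2.71 ± 0.76), and the antisense locus miR-142b has identical counts, so these loci are a single measurement. Of the 5 tested leukocyte markers, 2 were higher, both of them arms of the miR-142a hairpin, against 11.7% of all loci tested. The summed level of the list, nearly all miR-150-5p, was 1816 to 2217 CPM in sham and 1708 to 2556 CPM in R-UUO. miR-223-3p, a myeloid miRNA, had a log2 fold change of 2.12 at UUO-7 and of 1.18 in R-UUO, where it did not pass (adjusted p = 0.083). miR-511-5p, of macrophages, had 0 to 0.104 CPM in sham and 0 to 0.755 CPM in R-UUO, with 5 counts in all, and its other arm miR-511-3p, with 27 counts, had 0.181 to 0.828 CPM in sham and 0 to 0.797 CPM in R-UUO. On the scale over all 63 libraries, the sham mean of miR-142a-5p was 33.8 CPM in ECs and 36493 CPM in Macs. The part of leukocyte RNA in the miR-142a change was not tested. In sorted bulk RNA, fewer cells of a type and less RNA per cell cannot be told apart.

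**Figure D3:**
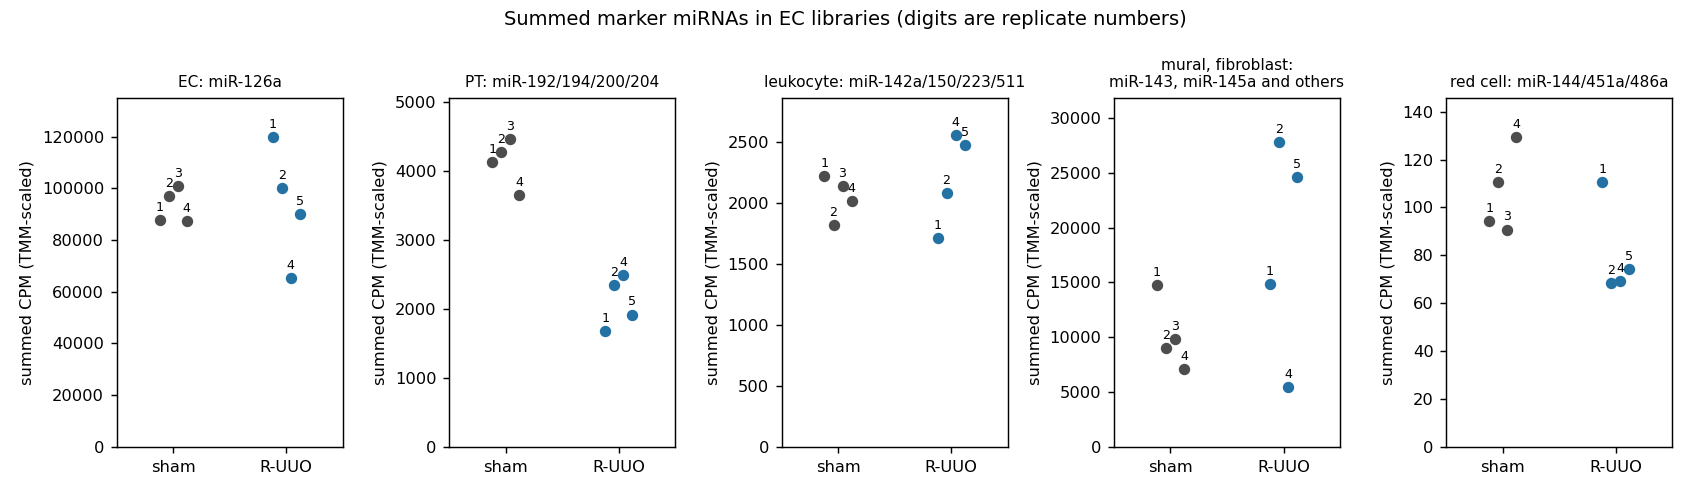
Summed CPM (linear axes from 0) of the marker miRNAs of each cell type in the sham and R-UUO EC libraries, 1 point a library with its replicate number. The list of PT cell markers, mostly miR-192-5p and miR-204-5p in these libraries, summed to 3648 to 4456 CPM in sham and 1681 to 2495 CPM in R-UUO, or without miR-204 to 1966 to 3060 and 1411 to 1874 CPM. The EC markers summed to 87462 to 100788 and 65175 to 119958 CPM. In the red cell list, overlapping loci are counted once.

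The family of miR-99, miR-100 and miR-125, whose hairpins lie together with let-7 genes and which are known from stem cells and haematopoiesis, was higher at 7 of 11 tested loci, against 11.7% of all loci, and lower at none, with a median log2 fold change of 1.01. With library size alone, 5 passed. miR-100-5p stood at 148, 98.1, 110 and 98.7 CPM in sham and at 258, 329, 198 and 334 CPM in R-UUO (1.30 ± 0.20, adjusted p = 0.00031). All R-UUO libraries were above all sham libraries, and above the UUO-7 range of 89.9 to 119 CPM. miR-100-5p was 1 of 5 loci (1.07%) that differed between R-UUO and UUO-7, with a log2 fold change of 1.41 ± 0.20 (SE) and adjusted p = 0.0011.

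miR-99a-5p stood at 233, 118, 235 and 190 CPM in sham and at 568, 380, 458 and 383 CPM in R-UUO (1.21 ± 0.21). The locus of miR-125b-5p on chromosome 9 stood at 346, 218, 377 and 307 CPM in sham and at 686, 571, 812 and 569 CPM in R-UUO (1.08), and the copy on chromosome 16 had a log2 fold change of 1.07. Reads of the identical copies cannot be assigned to 1 of them with certainty. At UUO-7 the log2 fold changes were 0.79 for miR-99a-5p and 0.58 for miR-125b-5p at both loci. The miR-99b and miR-125a loci of the cluster on chromosome 17, including miR-99b-5p and miR-125a-5p, did not pass.

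miR-148a-3p, which targets DNA methyltransferases, stood at 188, 108, 139 and 111 CPM in sham and at 345, 317, 379 and 443 CPM in R-UUO. The log2 fold change was 1.44 ± 0.17 (SE), adjusted p = 2.0e-05. The UUO-7 libraries lay at 170 to 210 CPM, below every R-UUO library, and the difference between R-UUO and UUO-7 passed (0.94 ± 0.16, adjusted p = 0.0057). Its change was 0.50 at UUO-7, under the fold threshold, and 1.44 after reversal.

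On the X chromosome, the cluster of miR-322, miR-503, miR-351, miR-542 and miR-450 (chrX:53048008-53054327), which is known from muscle differentiation and cell cycle control, was higher at 6 of 12 tested loci, against 11.7% of all loci, and lower at none, with a median log2 fold change of 0.59. miR-322-5p, the mouse counterpart of miR-424 with the miR-15 and miR-16 seed, stood at 1220, 1105, 1694 and 1356 CPM in sham and at 3974, 2186, 5417 and 2502 CPM in R-UUO (1.39 ± 0.24, adjusted p = 0.00071). The groups were apart, and R-UUO replicates 1 and 4 were the high libraries. miR-351-5p stood at 1513, 1712, 1608 and 1469 CPM in sham and at 3774, 2362, 3119 and 2628 CPM in R-UUO (0.91 ± 0.14). It did not reach the fold threshold and FDR together with library size alone, nor did miR-542-3p (0.86), miR-450b-5p (0.89) or the loci of miR-450a-5p. In the miR-15 and miR-16 seed family, 1 of 14 tested loci, miR-322-5p itself, was higher (median 0.40).

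In the miR-17 to miR-92a clusters and their relatives, which promote proliferation, 5 of 18 tested loci were higher, 2 of them copies of miR-19b-3p, against 11.7% of all loci tested (median 0.45). DESeq2 gave 3 higher. Library size alone gave 3 higher and 2 lower, where 31 of all 469 loci were higher and 70 lower. Library size alone without R-UUO replicate 4 gave none higher and 2 lower, where 34 of all 490 loci were higher and 56 lower. All 3 loci with the miR-19 seed were among the 5 higher loci of the main analysis. miR-19b-3p of chromosome 14 stood at 73.4, 106, 148 and 104 CPM in sham and at 191, 138, 657 and 186 CPM in R-UUO. The groups overlapped and R-UUO replicate 4 was far above the others, and the log2 fold change was 1.44 ± 0.39 with and 0.75 without that library. The copy on the X chromosome went from 1.56 to 0.80 and miR-19a-3p from 1.39 to 0.86 in the same way. miR-17-5p (0.61) and miR-93-5p (0.59) were close to the fold threshold. They passed without that library, at 0.69 and 0.73, but not with DESeq2 (0.58 and 0.57) or library size alone (0.29 and 0.28), and miR-93-5p not without R-UUO replicate 1.

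The Hox cluster miRNAs, encoded among the homeobox genes that fix position along the body axis, were higher at 4 of 11 tested loci, against 11.7% of all loci tested (median 0.53), and at 2 of them without R-UUO replicate 4 or with library size alone. miR-10b-5p, of a family needed for vessel sprouting, stood at 100191, 70179, 106876 and 81401 CPM in sham and at 163685, 114685, 371984 and 142186 CPM in R-UUO. Every R-UUO library was above every sham library, and the log2 fold change was 1.14 ± 0.28 (adjusted p = 0.0078), or 0.71 without R-UUO replicate 4. miR-10a-5p stood at 169642, 184041, 224195 and 191875 CPM in sham and at 237259, 209159, 539401 and 250039 CPM in R-UUO, so that the groups overlapped. Its change (0.68 ± 0.23, adjusted p = 0.044) was 0.34 and did not pass without that library, and it did not pass without sham replicate 1, 2 or 4 or with library size alone. miR-196b-5p stood at 273, 211, 243 and 214 CPM in sham and at 544, 331, 963 and 403 CPM in R-UUO (1.25 ± 0.25). The groups were apart, and R-UUO replicate 4 was again the highest. miR-196a-5p of chromosome 15 (0.82) lost its call without that library (0.62, adjusted p = 0.054), without sham replicate 2 and with library size alone (0.46, adjusted p = 0.14).

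Both arms of miR-145a, a miRNA of smooth muscle and pericytes, were higher after reversal. miR-145a-5p stood at 79.7, 56.3, 63.9 and 55.8 CPM in sham and at 79.4, 153, 233 and 182 CPM in R-UUO (1.34 ± 0.34, adjusted p = 0.011). R-UUO replicate 1 lay at the top of the sham range and the other R-UUO libraries were above it. The UUO-7 libraries lay at 36.2 to 63.0 CPM, and R-UUO exceeded UUO-7 by 1.67 ± 0.35 (adjusted p = 0.021). miR-145a-3p passed against sham (1.00 ± 0.34, adjusted p = 0.044) but lost that call without sham replicate 2, 3 or 4, without R-UUO replicate 2 or 5, and with library size alone, and it passed against UUO-7 at 1.49 ± 0.35 (adjusted p = 0.046). These were the only ones to pass among 11 tested mural and fibroblast markers, while 11.7% of all loci tested were higher. The median log2 fold change of these markers was -0.03. Scaling by library size alone gave 1 higher and 1 lower, where 31 of all 469 loci were higher and 70 lower. Other members had values on either side of 0, such as 0.86 for miR-143-3p, -0.54 for miR-199a-3p of chromosome 1, -0.55 for miR-214-3p and -1.34 for miR-34b-3p, none past the test. The list summed to 7142 to 14775 CPM in sham and to 14819, 27811, 5449 and 24584 CPM in R-UUO, where replicate 4 was the low library. Nearly all of this sum was miR-143-3p, and without it the list summed to 408 to 588 CPM in sham and to 386 to 674 CPM in R-UUO. On the scale over all 63 libraries, the same list had a sham mean of 374948 CPM in PDGFR-β+ cells and 16468 CPM in ECs. The part of mural cell RNA in the miR-145a change was not tested.

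Some higher miRNAs stood outside these groups. miR-138-5p, of chromosome 8, was scarce and had a log2 fold change of 1.99 ± 0.45 with 0.473 to 0.998 CPM in sham and 2.00 to 5.70 CPM in R-UUO. miR-375-3p, an epithelial and endocrine miRNA, stood at 50.1, 49.1, 50.5 and 38.7 CPM in sham and at 91.0, 196, 86.0 and 86.5 CPM in R-UUO (1.29 ± 0.24). All R-UUO libraries were above sham, and all but replicate 2 were below the UUO-7 range of 161 to 218 CPM. The miR-181 family, which restrains NF-κB signalling in ECs, was higher at 3 of 10 tested loci, 2 of them copies of miR-181b-5p, against 11.7% of all loci (median 0.52), at 1 with library size alone, where 31 of all 469 loci were higher, and at 6 without R-UUO replicate 4. Its members miR-181b-5p on chromosome 1 and on chromosome 2 had log2 fold changes of 0.68 and 0.67 in R-UUO and of 0.93 each at UUO-7.

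Among the 9 lower loci with a mean over 100 CPM, miR-204-5p had the largest fold change. It is hosted by the channel gene Trpm3 and is known from epithelia and vascular cells. It stood at 2156, 2108, 1395 and 1298 CPM in sham and at 270, 566, 621 and 450 CPM in R-UUO, 3.65-fold lower (log2 fold change -1.87 ± 0.22 (SE), adjusted p = 2.9e-05). The groups did not overlap. The mean was 1142 CPM at UUO-2, and the UUO-7 libraries lay at 512 to 650 CPM, which overlaps the R-UUO values at their upper end. The other arm, miR-204-3p, fell by 2.73 ± 0.57 with at most 2.38 CPM in any sham library. miR-204 was entered in the list of markers of LTL+ proximal tubular (PT) cells, but on the scale over all 63 libraries the sham mean of miR-204-5p was 2796 CPM in ECs, 112 CPM in PT cells, 835 CPM in PDGFR-β+ cells and 39.3 CPM in Macs.

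miR-192-5p, the defining miRNA of PT cells, stood at 1529, 1726, 2418 and 1905 CPM in sham and at 997, 1196, 1251 and 928 CPM in R-UUO (-0.79 ± 0.20, adjusted p = 0.01). The groups did not overlap, but the call was lost without sham replicate 4, R-UUO replicate 1 or R-UUO replicate 5. Its sham mean on the common scale was 118265 CPM in PT cells and 3043 CPM in ECs. With both arms of miR-204, it made 3 lower loci of 13 tested in the list of PT markers, against 5.12% of all loci, and the median log2 fold change of the list was 0.00. By library size alone, 4 were lower, where 70 of all 469 loci were lower, and the median was -0.27. The whole list summed to 3648 to 4456 CPM in sham and 1681 to 2495 CPM in R-UUO. Without miR-204, whose level in ECs goes against its place in the list, it summed to 1966, 2159, 3060 and 2349 CPM in sham and to 1411, 1774, 1874 and 1468 CPM in R-UUO, which did not overlap. Most of this sum was miR-192-5p, and without it too the list summed to 432 to 642 CPM in sham and to 414 to 624 CPM in R-UUO, which overlapped. The tested loci of miR-194, miR-215 and the miR-200, miR-141 and miR-429 family did not pass, and miR-215-3p, miR-429-5p and miR-200c-5p had no count in these 8 libraries. The part of tubular RNA in the miR-192-5p change was not tested.

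miR-574-3p stood at 127, 121, 90.3 and 125 CPM in sham and at 40.4, 50.8, 51.7 and 56.2 CPM in R-UUO (-1.22 ± 0.21, adjusted p = 0.00071). The groups did not overlap. The UUO-7 libraries lay at 61.0 to 114 CPM, above every R-UUO library and partly within the sham range. miR-1941-5p stood at 14.8, 15.3, 8.80 and 15.7 CPM in sham and at 1.94, 3.33, 1.89 and 2.74 CPM in R-UUO (-2.41 ± 0.30, adjusted p = 3.3e-05). At UUO-7 it was at 3.52 to 7.80 CPM, again between sham and R-UUO.

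miR-6538, of an intron of Rnf144a, had the largest fall of the loci past the test, from 43.7, 63.2, 38.7 and 50.6 CPM in sham to 2.73, 6.56, 7.55 and 2.52 CPM in R-UUO (-3.40 ± 0.63, adjusted p = 0.0011). Its sham mean on the common scale was 1929 CPM in PT cells and 78.6 CPM in ECs. miR-6240 fell from 133, 106, 115 and 101 CPM to 65.3, 53.4, 39.6 and 25.0 CPM (-1.31 ± 0.35), and its common-scale sham means were 2620 CPM in PT cells and 183 CPM in ECs. Of the 22 lower loci with a value on that scale, 5 (22.7%) had a sham mean in PT cells more than 5 times that in ECs, against 37 of 460 tested loci (8.04%). Among the 55 higher loci, 10 (18.2%) were more than 5 times as high in Macs, against 34 of the 460 (7.39%), 7 (12.7%) in PDGFR-β+ cells, against 24 (5.22%), and 4 (7.27%) in PT cells, against the 8.04% above. None of the 22 lower loci was so in Macs or PDGFR-β+ cells. The part of RNA from these cells in the changes was not tested.

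The other lower miRNAs of the rule were low in level or unsteady. miR-383-5p (-1.55 ± 0.31), miR-1668 (-1.62 ± 0.35) and miR-8112 (-1.52 ± 0.36) passed without each library in turn. miR-5099 (-1.14 ± 0.30) passed in all leave-outs but that of sham replicate 4, and miR-6240 in all but those of sham replicate 1 and R-UUO replicate 5. miR-5108 (-2.02), miR-6980-3p (-2.02), miR-874-3p (-1.26), miR-1249-3p (-1.24) and the chromosome 2 locus of miR-133a-3p (-1.23) each lost their call in 4 to 7 of the 8 leave-outs. For miR-5108 (adjusted p = 0.055) and miR-133a-3p (adjusted p = 0.068), that of R-UUO replicate 4 was among these. In all, 44 higher and 9 lower loci passed in every leave-out.

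The miRNAs best known from ECs mostly did not pass the test. miR-126a-3p stood at 13572, 15020, 17602 and 14445 CPM in sham and at 19818, 16283, 17031 and 17949 CPM in R-UUO, and did not pass (0.23, adjusted p = 0.15). miR-126a-5p had a log2 fold change of -0.04. The endothelial list also holds miR-139, miR-218, miR-151 and the locus miR-126b-3p that overlaps miR-126a-5p. Of its 10 tested loci, 1 was lower, miR-139-3p (-0.76), against 5.12% of all loci tested. The call of miR-139-3p was lost in 7 leave-outs, among them that of R-UUO replicate 4 (-0.72, adjusted p = 0.061). Without that library no locus of the list passed, and its median was 0.20. With library size alone 3 were lower, where 70 of all 469 loci were lower, and the median was -0.32, against -0.04 with TMM. The partner of miR-139-3p, miR-139-5p, carried in the Pde2a gene, had a mean of 338 CPM in sham, 502 CPM at UUO-7 and 269 CPM in R-UUO. Its R-UUO level passed below that at UUO-7 (-0.90 ± 0.18, adjusted p = 0.02), alone in this fit, although 18 to 21 loci did so with DESeq2, the likelihood ratio test, no filter or library size alone, and it did not pass against sham (-0.33), although it did with library size alone (-0.67, adjusted p = 0.031).

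In the other families the counts of loci past the test were small, and they are to be read against 11.7% higher and 5.12% lower of all loci tested. The counts with library size alone are to be read against 31 higher and 70 lower of all 469 loci with that scaling. Of the angiogenic and hypoxia miRNAs, 2 of 18 were higher (miR-322-5p and miR-212-5p) and 1 lower (miR-378a-3p, -0.60, lost in 7 leave-outs), with a median of 0.18, or -0.12 with library size alone. In the clusters of miR-23, miR-27 and miR-24, 1 of 13 was higher (miR-27a-5p, 0.85), and the median was -0.18, while with library size alone none was higher and 3 were lower (median -0.44). In the let-7 family, which holds back proliferation, 1 of 24 was higher (let-7i-3p, 0.79) and 2 were lower (let-7b-5p, -0.78, and let-7d-3p, -0.62, each lost in 6 leave-outs), while with library size alone none was higher and 10 were lower. In the miR-30 family, 1 of 12 was lower (miR-30c-2-3p, -0.61), while with library size alone 5 were lower. The call of miR-30c-2-3p was lost in 7 leave-outs, among them that of R-UUO replicate 4 (-0.57, under the fold threshold). None of the 6 tested loci of the miR-29 family, whose targets are collagens, of the 4 of the miR-34 family, which p53 induces, or of the 6 of the Clcn5 intron cluster passed (medians -0.09, -0.46 and -0.22), while with library size alone 1 miR-34 and 2 Clcn5 loci were lower. Of 150 loci of the Sfmbt2 intron cluster, none had enough counts to be tested. The 4 tested red cell markers, which are overlapping pairs of the arms of miR-486a and miR-486b and so only 2 measurements, did not pass, nor did the 4 neural and lens markers. With each pair counted once, the red cell list summed to 90.8 to 129 CPM in sham and 68.6 to 111 CPM in R-UUO.

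The imprinted Dlk1-Dio3 cluster on chromosome 12, a long maternal array of miRNA genes, had 46 tested loci, none of which passed in R-UUO (median -0.29, or 0.00 without R-UUO replicate 4). Of all loci tested, 16.8% passed in R-UUO. At UUO-7, 8 of the 46 loci of the cluster were lower than in the same sham libraries, against 25 of all 469 loci. Among the 8, miR-337-5p and miR-3544-3p had identical values, as did miR-3071-5p and miR-136-3p, so each pair is a single measurement. Both pairs are also among the 25. The median of the cluster there was -1.16, against -0.05 over all loci tested. Summed over the list, sham libraries held 2827 to 4303 CPM, and R-UUO replicates 1, 2, 4 and 5 held 1330, 3972, 941 and 3897 CPM. Thus 2 R-UUO libraries lay below and 2 within the sham range. miR-434-3p followed this split, with 297 to 478 CPM in sham and 118, 424, 97.7 and 453 CPM in R-UUO.

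Set beside UUO-7, many DEmiRNAs of obstruction were still past the test after reversal. The comparisons share their sham libraries, so the values are placed side by side without a test of their likeness. At UUO-2, 8 loci (1.71%) differed from sham, 7 of them higher, while DESeq2 gave 14 higher and 2 lower, the likelihood ratio test 13 and 2, and no filter on low counts 18 and 10. At UUO-7, 54 loci differed (11.5%), 29 higher and 25 lower, and the groups did not overlap at 116 loci (24.7%). Of the 29 higher, 21 were also higher in R-UUO and 8 were not past the test, 3 of these nearer to sham than to UUO-7. Of the 25 lower, 9 were also lower in R-UUO and 16 were not past the test, 8 of these nearer to sham. With library size alone, 38 were lower at UUO-7, 20 of them also in R-UUO, and 50 were lower in R-UUO alone. No locus passed in opposite directions.

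The 21 loci that were higher at both times had a median log2 fold change of 1.99 at UUO-7 and of 1.72 in R-UUO, and the 9 that were lower at both had -1.55 and -1.62. The 34 loci that were higher in R-UUO alone had a median of 0.50 at UUO-7 and 0.98 in R-UUO. Of these, 30 had the same sign at UUO-7, and 16 had an unadjusted p under 0.05 there. The 15 that were lower in R-UUO alone had -0.43 and -0.99. The direct comparison of R-UUO with UUO-7 passed at 5 loci, those of miR-100-5p, miR-148a-3p, both arms of miR-145a and miR-139-5p, 4 higher and 1 lower. This count depended on the test: DESeq2 gave 17 higher and 21 lower, the likelihood ratio test 23 and 18, no filter 19 and 20, and library size alone 5 and 20. Without R-UUO replicate 4 in the fit, 47 loci were higher at UUO-7, 36 of these also in R-UUO, and 24 were lower at UUO-7, 7 of these also in R-UUO.

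Among loci past the test at UUO-7 alone were miR-223-3p and miR-146a-5p, given above, and miR-434-3p, with a log2 fold change of -1.52 at UUO-7 and of -0.54 in R-UUO. miR-29c-3p had a log2 fold change of -0.89 at UUO-7 and of -0.27 in R-UUO. miR-184-3p, a lens and neural marker, passed at UUO-7 on 1 library, with 423 CPM in replicate 3 and 1.07 to 2.29 CPM in the others.

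**Figure D4:**
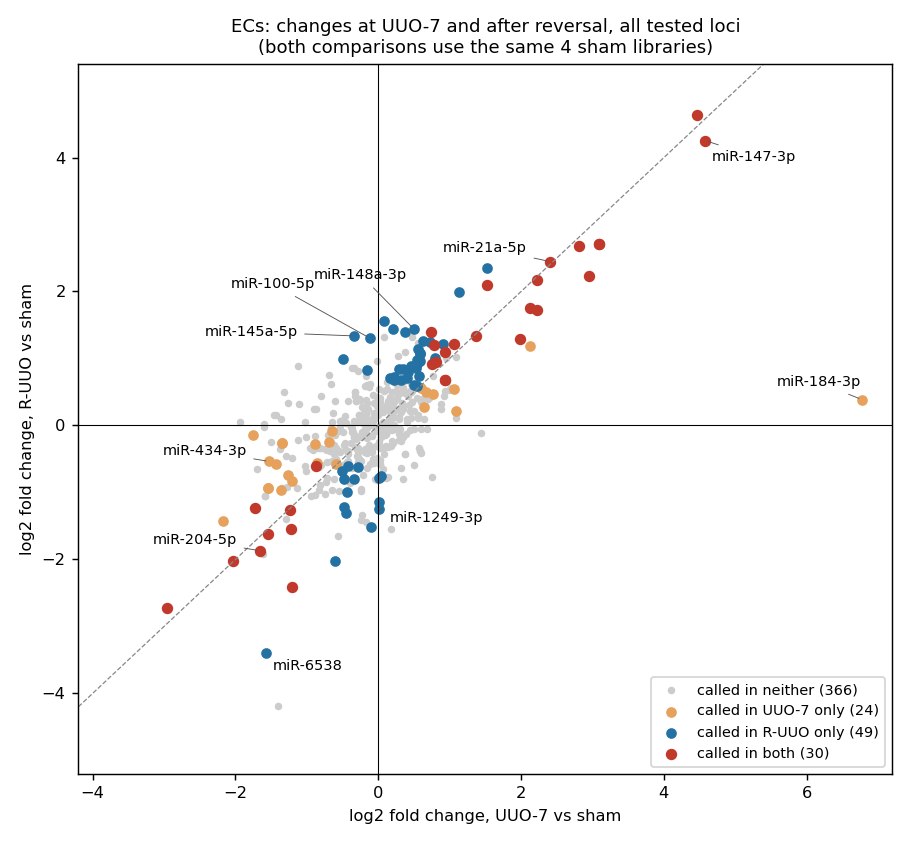
The log2 fold change against sham at UUO-7 (horizontal axis) and in R-UUO (vertical axis) for the 469 tested EC loci, coloured by which comparison passed, with a dashed line where both are equal. There were 30 loci past both tests, 24 past that at UUO-7 alone, 49 past that in R-UUO alone and 366 past neither, and both axes share the sham libraries.

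The change from sham to R-UUO was also compared between ECs and each other sorted population as a difference of changes, in a fit of both populations together. Within each population, 199 of 477 loci (41.7%) passed in PDGFR-β+ cells, 146 of 457 (31.9%) in Macs and 128 of 330 (38.8%) in PT cells. The EC change differed from that in PDGFR-β+ cells at 146 of 537 loci (27.2%), from that in Macs at 110 of 555 (19.8%) and from that in PT cells at 85 of 509 (16.7%). The median difference over all loci was -0.33, -0.23 and -0.35, so that values should be read against a general offset below 0. Among the PT libraries, R-UUO replicate 1 stood apart, with a TMM factor of 0.427 and 86.4% of its counts in its 10 most counted loci. The other R-UUO libraries of PT cells had factors of 0.996 to 1.13 and shares of 68.8% to 72.5%. The differences from PT cells given here include that library.

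miR-204-5p and miR-574-3p had the same sign of difference against all 3 populations. For miR-204-5p, the log2 change was -1.87 in ECs, 0.08 in PDGFR-β+ cells, 1.70 in Macs and 3.16 in PT cells, and the EC change minus these was -1.97 ± 0.43, -3.56 ± 0.40 and -5.21 ± 0.36. For miR-574-3p these differences were -2.02, -1.62 and -1.87. miR-21a-5p rose in ECs, but its EC change minus that in PDGFR-β+ cells (4.73) was -2.29, and minus that in Macs (0.93) it was 1.44. Against PT cells (1.58), its difference of 0.70 did not pass, and it passed with the mouse as a block (0.91).

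miR-155-5p and miR-146b-5p rose far more in PDGFR-β+ cells, at 5.20 and 5.02, and the differences, ECs minus PDGFR-β+ cells, were -3.49 and -3.70. miR-142a-5p had a change of -0.78 in Macs, against 1.72 in ECs, and the difference of 2.44 passed. The miR-148a-3p change in ECs was below that in PDGFR-β+ cells (difference -1.19) and Macs (-1.60), and its difference from PT cells was 0.04. For the miR-183, miR-96 and miR-182 cluster the differences, ECs minus PT cells, were -2.25, -6.17 and -2.36. For miR-10b-5p the EC change was 1.67 above that in PDGFR-β+ cells.

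**Figure D5:**
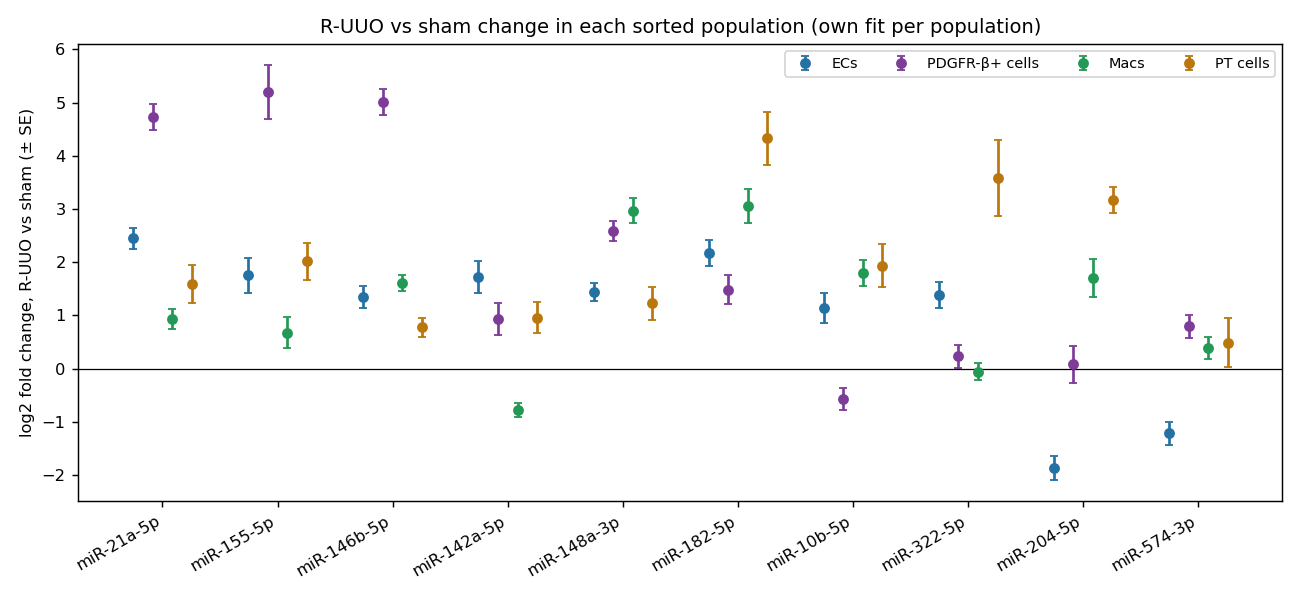
The log2 change from sham to R-UUO, with bars of ± 1 SE, of 10 miRNAs in each of the 4 sorted populations. miR-204-5p fell in ECs (-1.87) and was at 1.70 in Macs and 3.16 in PT cells, and miR-146b-5p reached 5.02 in PDGFR-β+ cells.

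Across hairpins with both arms tested and at least 1 arm past the test in R-UUO, 29 in all, both arms passed in the same direction in 7 and in opposite directions in none. In the other 22, a single arm passed, and the arms had the same sign in 14. By seed, the loci past the test included all 3 with the miR-19 seed, 3 of 4 with that of miR-125b-5p and miR-351-5p, 2 of 3 with that of miR-99a-5p and miR-100-5p, both miR-10 loci, 2 of 6 with the miR-181 seed, and 1 of 11 with that of let-7, which was lower. The shares are set against the 16.8% of all loci tested, and copies of a miRNA and members of a cluster are not independent.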

How the data were processed

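The authors trimmed sRNA-Seq reads with Trim Galore 0.4.1 and cutadapt 1.1 (Phred scores under 20 removed), mapped the rest with ShortStack (a Bowtie wrapper) against the GRCm38 genome and miRBase entries, and deposited raw counts per mature miRNA locus. They removed 1 PDGFR-β+ library. No molecular identifiers were named, so intervals and floors cover counting error only. The use of strand and the placement of reads from identical copies are not given in the sources used here. Of 2110 loci, 523 had no count in any library and 1296 had a count in ECs.

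Counts were tested with edgeR 4.0.16 in R 4.3.3 (filterByExpr, TMM, quasi-likelihood test over the 16 EC libraries, Benjamini-Hochberg adjustment, FDR under 0.05 and fold change above 1.5). Interaction contrasts compared cell types. Alternatives were DESeq2 1.42.0, a likelihood ratio test, library size alone, no filter, only the groups compared, blocks, identical loci once, names summed, thinned depth, FDR alone and leaving out each library. Scripts were tested on simulated counts. Libraries of 1 number within a condition were taken to come from the same mouse, since their titles share that number but name no mouse. The correlation of their deviations was -0.0218 to 0.254 between ECs and Macs. It was -0.295 to 0.224 between ECs and PDGFR-β+ cells and -0.0391 to 0.130 between ECs and PT cells.

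Loci named were the 15 higher and 15 lower with the largest fold change, all past the test between R-UUO and UUO-7, the 10 largest at UUO-7 without overlap, 3 per list (the 2 highest in level and the largest change), the cell type markers, and other arms of named hairpins. Outside this rule, chosen after their values were seen, were miR-146b-5p, miR-212-5p, miR-99a-5p, miR-125b-5p, miR-351-5p, miR-542-3p, miR-450a-5p, miR-450b-5p, miR-17-5p, miR-93-5p, miR-19a-3p, miR-196a-5p, miR-375-3p, miR-181b-5p, miR-434-3p, let-7b-5p, let-7d-3p and let-7i-3p. The members, lists and comparisons were chosen with earlier results of these data known. Sequences came from RefSeq GRCm38.p6.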

Additional observations from a re-analysis of the deposited data

Results flagged for a closer look

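Among 210 groups of 4 libraries examined over 105 named loci, 25 held a library far from the other 3, by the ratio of its gap to the range of the group (Dixon's test, 95% critical value). Chance alone marks about 1 in 20 groups. Of the 25, 8 were R-UUO replicate 4 and 6 were sham replicate 3. No cause was tested.

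R-UUO replicate 4 was the high library for miR-155-3p (ratio 0.965), miR-96-5p (0.916), miR-19b-3p of the X chromosome (0.877) and of chromosome 14 (0.897), miR-10a-5p (0.876) and miR-215-5p (0.936). It was the low library for miR-27a-3p (0.914), at 1589 CPM against 2679 to 2781, and miR-29a-3p (0.918), at 1305 CPM against 1594 to 1620. R-UUO replicate 1 was high for miR-181a-5p of chromosome 2 (0.869) and of chromosome 1 (0.875) and for miR-486a-5p and miR-486b-3p, which overlap and have nearly identical counts (0.885 each). R-UUO replicate 5 was high for miR-31-5p (0.886).

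Sham replicate 3 was low for miR-1941-5p (0.867) and miR-574-3p (0.832) and high for miR-1668 (0.893), miR-30d-5p (0.85), miR-429-3p (0.959), at 178 CPM against 103 to 106, and miR-200b-3p (0.894). Sham replicate 4 was low for miR-31-5p (0.865) and miR-29a-5p (0.86) and was the only sham library with a count of miR-155-3p (1). Sham replicate 1 was high for miR-183-5p (0.84) and miR-143-5p (0.904), and sham replicate 2 for miR-199a-3p of chromosome 1 (0.833).

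For the 30 loci with the largest changes, the change from sham to R-UUO in ECs was set against that in the other populations. A difference was flagged in 28 pairs of a locus and a population, and some loci are in several pairs. Over all loci, the change differed at 27.2% against PDGFR-β+ cells, 19.8% against Macs and 16.7% against PT cells. The 30 loci were picked by the size of their EC change, which favours a difference. Values are log2 differences, ECs minus the other, from the interaction test. Against PDGFR-β+ cells they were -2.29 for miR-21a-5p, -2.47 for miR-21a-3p, -1.31 for miR-5099, -2.16 for miR-1249-3p, -3.49 for miR-155-5p, -1.97 for miR-204-5p, -2.02 for miR-574-3p, -1.19 for miR-148a-3p and -2.96 for miR-8112. Against Macs they were 1.44 for miR-21a-5p, 1.17 for miR-21a-3p, 2.57 for miR-142a-3p and its identical antisense locus miR-142b (2.57), 2.44 for miR-142a-5p, -3.56 for miR-204-5p, -1.62 for miR-574-3p, -2.37 for miR-6240, -1.6 for miR-148a-3p, -1.96 for miR-8112 and 1.71 for miR-19b-3p of the X chromosome. Against PT cells they were 1.78 for miR-21a-3p, -5.21 for miR-204-5p, -3.11 for miR-133a-3p of chromosome 2, -1.87 for miR-574-3p, -2.36 for miR-182-5p, -6.17 for miR-96-5p, -2.25 for miR-183-5p and -3.18 for miR-383-5p, which did not pass with the mouse as a block (adjusted p = 0.054).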

How the results depend on the processing

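None of the 79 loci past the test in R-UUO against sham changed sign with DESeq2, with library size alone or, wherever it was still tested, in the leave-outs. The other alternatives were followed only for named loci, where none past the test changed sign but 22 that did not pass did, all with a log2 fold change of at most 0.316 in size, such as miR-126a-3p (0.23, or -0.09 with library size alone) and miR-146a-5p (0.28, or -0.06). For R-UUO against sham, the main counts were 55 higher and 24 lower. With library size alone they were 31 and 70, with library size alone and R-UUO replicate 4 left out (chosen after seeing the data) 34 and 56, with FDR alone 38 were lower, and leaving out each library gave 47 to 73 higher and 12 to 29 lower. For UUO-7 (29 higher, 25 lower), 41 were lower by the likelihood ratio test, 38 with library size alone, 39 with only both groups, 16 with identical loci counted once, 14 with names summed and 13 after thinning. Without the filter 46 were higher, and with identical loci once 45. Leaving out each sham or UUO-7 library gave 24 to 42 higher and 7 to 18 lower, and leaving R-UUO replicate 4 out of the common fit 47 and 24. For UUO-2 (7 higher, 1 lower), DESeq2 gave 14 and 2, the likelihood ratio test 13 and 2, and no filter 18 and 10. Library size alone gave 0 lower, only both groups 5 lower, and leaving out each library 4 to 10 higher and 0 to 1 lower. For R-UUO against UUO-7 (4 higher, 1 lower), DESeq2 gave 17 and 21, the likelihood ratio test 23 and 18, no filter 19 and 20, and only both groups 2 and 0. Library size alone gave 20 lower, thinning 2 lower, and leaving out each library 1 to 8 higher (8 without R-UUO replicate 4) and 0 to 12 lower. The difference of changes from Macs passed at 110 loci, or at 69 with only the groups compared, and at 78 to 129 when each mouse was left out. The cause of these moves was not tested. Over the 105 named loci and 8 leave-outs, a call of the main analysis was kept 276 times and lost 68 times, and a locus without a call gained one 24 times and stayed without 472 times.

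With the replicate number as a block, R-UUO against sham gave 43 higher and 20 lower, and the lower counts at UUO-2 and of R-UUO against UUO-7 were 0. Same-numbered sham and R-UUO libraries came from different mice (3 pairs, correlation of deviations 0.0519 to 0.116), so the numbers share only a name. With the mouse as a block, the differences from PDGFR-β+ cells, Macs and PT cells passed at 121, 107 and 75 loci. The mouse was taken from the replicate number within a condition.

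Depth limited scarce miRNAs such as miR-155-3p, miR-96-5p, miR-147-3p and miR-204-3p, whose lower group was near the floor of 3 counts, and R-UUO replicate 4 had the highest floor, 1.13 CPM.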
